A study of Homo sapiens with 5 samples.

Results

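Numbered ZNF genes are the human genes whose symbol is ZNF followed by a number alone, most of which encode C2H2 zinc-finger proteins. The genes described here are the 220 of them whose mean expression was at least 3 log2 CPM (read counts scaled to library size, on a log2 scale) in the authors' deposited table, of 358 numbered ZNF genes and 11976 genes in that table. They were chosen by symbol and selected on this mean over all libraries, so their expression levels are a description. The set was proposed with earlier results of these data known. RefSeq lists 477 protein-coding genes with such a symbol, and those outside the table were not analysed here. Bulk RNA-seq compared 3 libraries labelled ERF knockout with 2 libraries labelled wild type, all from HUDEP-2, an immortalised erythroid progenitor line from umbilical cord blood. ERF is an ETS-family transcriptional repressor. The wild-type titles carry the letters SCR, and the table's name the word Pre, neither of which is explained, so the stage of culture is unknown. The labels do not say how the knockout was made, whether it is 1 clone or whether the libraries of a group are separate cultures. The p-values may therefore reflect only technical spread.

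Zinc-finger proteins of the C2H2 type bind DNA through tandem fingers, each held by a zinc ion between cysteines and histidines. Most of the numbered family also carry a KRAB domain, which binds the corepressor TRIM28. TRIM28 in turn recruits the methyltransferase SETDB1 and HP1 proteins, and many KRAB factors silence transposable elements this way. Their genes multiplied by tandem duplication and lie in dense clusters on chromosome 19. Other members of the family have no KRAB domain and act as activators, as subunits of corepressor complexes or on RNA and ribosomes.

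The table holds 1 comparison and no values per library, so no level per sample, no SD, no library depth and no overlap between groups can be given. Each standard error (SE) is an approximation from the deposited F statistic. The 95% bounds take their t quantile at 10.34 degrees of freedom, a number solved from the deposited F and p. The table does not name its reference group. Its sign was set so that the γ-globin gene HBG2 is higher in the libraries labelled knockout, because the series title says that γ-globin is reactivated. By this sign the authors' deposited table puts HBG2 at a log2 fold change of 1.88 and ERF itself at 0.89, which goes against the knockout label. Read the other way, each higher below becomes lower and each lower becomes higher. All 12 erythroid markers examined were in the authors' deposited table, at 3.94 to 12.48 log2 CPM, and 0 of 6 T and B lymphoid markers and 1 of 6 myeloid markers were there. The erythroid median was 7.45 log2 CPM. ITGA2B, 1 of 4 megakaryocyte markers, was in it at 7.26 log2 CPM, and KIT and TPSAB1, 2 of 3 mast cell markers, at 8.8 to 9.18. The part of such cells in the fold changes was not tested.

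Most numbered ZNF genes differed little between the labelled groups. Of the 220, 43 were higher and 61 lower by an adjusted p below 0.05 (edgeR), and 116 did not pass, in the authors' deposited table. The share called was 47.3%, beside 50.9% of all genes and 54.1% of all genes of at least 3 log2 CPM. Higher calls made up 19.5% of the members, beside 28.4% of all genes at that expression, and lower calls 27.7%, beside 25.7%. At an unadjusted p below 0.05, 49 members were higher and 68 lower. The median log2 fold change of the members was 0.00, beside 0.02 over all genes of at least 3 log2 CPM, and 110 of the 220 members lay above 0. The lower and upper quartiles were -0.19 and 0.14 for members and -0.17 and 0.19 for all genes at that expression.

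Larger changes were mostly decreases. With an added minimum of 0.5 on the absolute log2 scale, 1 member was higher and 17 were lower in the authors' deposited table. Over all genes of at least 3 log2 CPM, 3.83% were higher and 6.32% lower by that rule, and over all genes 5.59% and 9.67%. ZNF419 was the 1 called member that differed at least 2-fold. The median absolute log2 fold change was 0.16 over members and 0.18 over all genes at that expression, and the median SE was 0.07 over members.

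**Figure D1:**
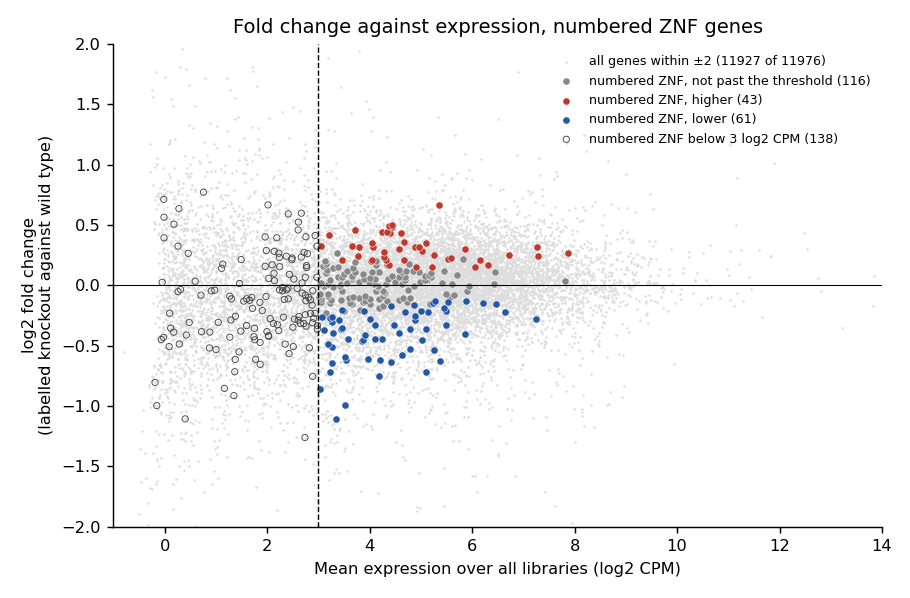
Log2 fold change (labelled knockout against wild type) against mean expression in log2 CPM for each numbered ZNF gene, over all genes in grey (log2 fold changes within 2 of 0 shown). Red, blue and grey filled points are members called higher (43), called lower (61) and not past the threshold (116), open circles are the 138 numbered ZNF genes below the dashed threshold of 3 log2 CPM, and most called members lie within 0.5 of 0.

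The direction of the calls varied with expression level. Of 86 members at 3 to 4 log2 CPM, 7 were higher and 25 lower in the authors' deposited table. These are 8.14% and 29.1% of the members, beside 20.9% and 28.9% of all genes in that range, where 49.8% were called in either direction. With the minimum of 0.5, 0 of the 86 were higher and 9 lower, beside 4.96% and 11.1% of all genes in that range. Of 81 members at 4 to 5 log2 CPM, 21 were higher (25.9%) and 18 lower (22.2%), beside 25.5% and 26.6% of all genes there. Between 5 and 6 log2 CPM, 8 of 39 were higher (20.5%) and 14 lower (35.9%), beside 31.7% and 26.2% of all genes. From 6 log2 CPM upward, 7 of 14 were higher and 4 lower, beside 31.8% and 23% of all genes. The share of calls that were lower also fell with level over all genes, from 58% at 3 to 4 log2 CPM to 42% from 6 log2 CPM upward, so this trend was not particular to the numbered ZNF genes. The 138 numbered ZNF genes under the threshold had 14 higher (10.1%) and 40 lower (29%), with a median log2 fold change of -0.12. Among all genes at any level 24.9% were higher and 25.9% lower. The shares for all genes below 3 log2 CPM were not computed, so these 138 have no background at their own level. Just inside the threshold lay ZNF133, ZNF749 and ZNF441, at 3.00, 3.02 and 3.04 log2 CPM with log2 fold changes of -0.10, 0.01 and -0.86 in the authors' deposited table. Just outside lay ZNF10, ZNF606 and ZNF341, at 2.98, 2.98 and 2.97 log2 CPM with log2 fold changes of -0.33, -0.36 and 0.33 there.

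ZNF419 (ENSG00000105136, chromosome 19), a KRAB factor with 11 fingers, had the lowest fold change of the members. It was 2.15-fold lower, a log2 fold change of -1.10 with an SE of 0.08 and 95% bounds at -1.29 and -0.92 (edgeR adjusted p = 4.56e-06), in the authors' deposited table. ZNF767 (chromosome 7), annotated by GENCODE as a transcribed pseudogene, followed at -0.99 with an SE of 0.08 in the authors' deposited table. The KRAB gene ZNF441 on chromosome 19 stood at -0.86 with an SE of 0.11 in the authors' deposited table, at a mean of 3.04 log2 CPM. These intervals overlap their neighbours in the order, so the rank of ZNF419 over ZNF767 is within error, whereas all lie apart from 0.

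Members without a KRAB domain filled much of the rest of the lowest group. ZNF581 (chromosome 19) stood at -0.75 in the authors' deposited table, and it shares exons with its neighbour ZNF580, so the split of reads between them is uncertain. ZNF16, also known as HZF1 and studied in erythroid and megakaryocytic differentiation, stood at -0.72 with an SE of 0.08 in the authors' deposited table. ZNF711, an X-linked relative of ZFX that binds CpG island promoters, stood at -0.72 with an SE of 0.05 and was 1.65-fold lower (edgeR adjusted p = 3.13e-06) in the authors' deposited table. It had the smallest SE of the 12 lowest members. ZNF516, a repressor that works with CtBP, stood at -0.64, and ZNF76, the paralogue of ZNF143, at -0.61 in the authors' deposited table. ZNF775, which overlaps exons of other annotated genes, stood at -0.62 in the authors' deposited table.

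Of the KRAB genes in the lowest 12, ZNF627 and ZNF566 on chromosome 19 stood at -0.63 and -0.62 in the authors' deposited table. ZNF496 on chromosome 1, which joins a SCAN domain for dimerisation to its KRAB domain, stood at -0.62 in the authors' deposited table. The 5 further called members below -0.5 were ZNF449, ZNF277, ZNF609, ZNF302 and ZNF350. ZNF350, also called ZBRK1, a KRAB partner of BRCA1, stood at -0.51 with an SE of 0.08 in the authors' deposited table.

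ZNF480 (ENSG00000198464, chromosome 19), a KRAB gene with 10 fingers, was the highest member and the 1 above 0.5. It was 1.58-fold higher, a log2 fold change of 0.66 with an SE of 0.06 and 95% bounds at 0.52 and 0.80 (edgeR adjusted p = 2.03e-05), in the authors' deposited table. ZNF143 (ENSG00000166478, chromosome 11), an activator bound at many promoters and loop ends, was 1.41-fold higher, at 0.50 with an SE of 0.07 (edgeR adjusted p = 0.00016) in the authors' deposited table. Its interval of 0.35 to 0.64 lies apart from that of its paralogue ZNF76, which ran from -0.79 to -0.43. The pair was thus called in opposite directions.

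The next 3 in the order were KRAB genes. ZNF783 on chromosome 7, with exons that overlap another annotated gene, stood at 0.49 in the authors' deposited table. ZNF850 on chromosome 19, whose 29 fingers were the most of any KRAB member, stood at 0.48 there. ZNF641 stood at 0.46 in the authors' deposited table. ZNF202, a SCAN and KRAB repressor studied in lipid metabolism, and ZNF271, annotated as a pseudogene, each stood at 0.45 there. ZNF281, a factor that binds GC-rich sites, stood at 0.43 with an SE of 0.06 in the authors' deposited table. The remaining members of the highest 12 were ZNF107 (0.43), ZNF239 (0.41), ZNF398 (0.36) and ZNF567 (0.35) in the authors' deposited table. Intervals of neighbours in this order overlap throughout.

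**Figure D2:**
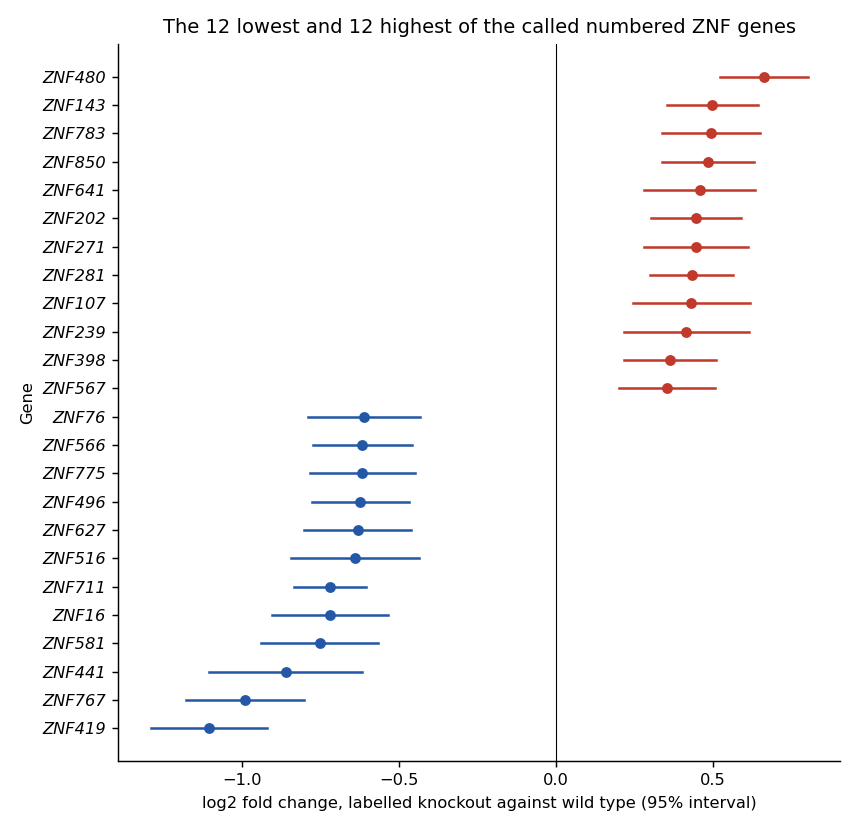
Log2 fold change (horizontal axis, labelled knockout against wild type) with its 95% interval for the 12 lowest and the 12 highest called members, blue for lower and red for higher. The lowest run from -1.10 (ZNF419) to -0.61 (ZNF76), and the highest from 0.35 (ZNF567) to 0.66 (ZNF480).

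ERF is an ETS-family factor, and ETS sites are built on the short core GGAA or GGAT. The sequences before the starts of the 3 lowest and the 3 highest called members with a RefSeq promoter entry are shown, 250 bases each, 5′ to 3′. Capitals mark each match on either strand to CCGGAAG, a longer ETS site. Shorter cores outside this string are not marked.
ZNF419, GRCh38.p14 chr19:57487500-57487749, + strand: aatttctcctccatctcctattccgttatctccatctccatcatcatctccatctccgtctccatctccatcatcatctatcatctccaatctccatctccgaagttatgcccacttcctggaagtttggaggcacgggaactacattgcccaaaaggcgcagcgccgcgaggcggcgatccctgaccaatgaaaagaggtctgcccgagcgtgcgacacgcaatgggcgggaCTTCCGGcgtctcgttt
ZNF441, GRCh38.p14 chr19:11766750-11766999, + strand: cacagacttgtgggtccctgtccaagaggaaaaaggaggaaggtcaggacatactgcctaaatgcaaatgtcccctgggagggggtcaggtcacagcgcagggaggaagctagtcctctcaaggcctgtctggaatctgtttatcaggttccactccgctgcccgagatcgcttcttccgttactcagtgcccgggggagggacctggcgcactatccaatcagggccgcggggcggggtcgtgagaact
ZNF581, GRCh38.p14 chr19:55643399-55643648, + strand: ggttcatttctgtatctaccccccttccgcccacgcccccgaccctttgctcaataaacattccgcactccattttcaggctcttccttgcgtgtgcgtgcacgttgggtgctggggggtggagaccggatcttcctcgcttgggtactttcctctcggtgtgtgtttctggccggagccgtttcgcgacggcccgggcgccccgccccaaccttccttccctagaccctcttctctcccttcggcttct
ZNF143, GRCh38.p14 chr11:9460762-9461011, + strand: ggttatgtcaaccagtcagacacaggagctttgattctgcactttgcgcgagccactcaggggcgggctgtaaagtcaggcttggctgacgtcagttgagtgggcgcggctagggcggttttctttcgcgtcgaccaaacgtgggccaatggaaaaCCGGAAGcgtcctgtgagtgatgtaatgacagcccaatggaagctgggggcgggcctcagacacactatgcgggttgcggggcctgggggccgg
ZNF783, GRCh38.p14 chr7:149261946-149262195, + strand: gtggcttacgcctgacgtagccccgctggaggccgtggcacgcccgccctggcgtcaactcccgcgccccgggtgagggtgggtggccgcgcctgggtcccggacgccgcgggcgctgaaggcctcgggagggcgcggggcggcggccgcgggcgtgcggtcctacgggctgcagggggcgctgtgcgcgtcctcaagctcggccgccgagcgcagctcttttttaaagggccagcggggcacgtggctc
ZNF850, GRCh38.p14 chr19:36772808-36773057, - strand: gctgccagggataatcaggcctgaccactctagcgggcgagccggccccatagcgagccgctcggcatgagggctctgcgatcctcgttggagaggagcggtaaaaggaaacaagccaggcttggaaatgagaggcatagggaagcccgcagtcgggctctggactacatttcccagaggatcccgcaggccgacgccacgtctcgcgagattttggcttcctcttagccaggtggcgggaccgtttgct
ZNF419, among the lower members, and ZNF143, among the higher, each held 1 match to CCGGAAG, and the other 4 held 0.

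The longer ETS site CCGGAAG, called the core in the counts below, was found before members called higher, called lower and not past the threshold. Sites with only the short GGAA or GGAT were not counted. RefSeq promoters (GRCh38.p14, the first start listed for a gene) were found for 187 of the 220 members, and 58 of them (31%) held CCGGAAG on either strand in the 250 bases before the start. Among all genes with an entry the share was 8.82% (2407 of 27305), and among the other genes of at least 3 log2 CPM it was 18.2% (1204 of 6623). The core was present in 13 of 35 members called higher, in 13 of 52 called lower and in 32 of 100 not past the threshold. Of the 58 members with the core 13 were higher and 13 lower, and of the 129 without it 22 were higher and 39 lower, a difference that was not tested. The 58 members with the core had a median log2 fold change of -0.01 and the 129 without it one of 0.01. Of KRAB members, 33.3% held it, and of members without KRAB 27.5%. ACTACAA, which is only a part of the ZNF143 motif, was present on either strand in 12 of the 187 (6.42%). Of the other genes at that expression, 4.02% held it. This string was present before 3 of 35 members called higher, 2 of 52 called lower and 7 of 100 not past the threshold. The E-box CACGTG was present in 11 (5.88%) of the members' promoters and in 10.2% of those of the other genes. These are matches of letters, not measured binding, and the share of G and C in these windows was not matched.

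The family split by protein domain as follows. Translated GENCODE 29 coding sequences gave a protein for 217 members, of which 135 matched a KRAB profile and 82 did not. Only the longest protein of each gene was scored, against a profile of the A box of KRAB. Some of the 82, called members without KRAB here, may therefore carry a KRAB domain that was missed. ZNF767 and ZNF271 are annotated as pseudogenes and the identifier of ZNF229 had no GENCODE 29 entry. KRAB members had a median of 11 fingers (2 to 29) and the others 9 (0 to 31). Of the KRAB members 86 (63.7%) lay on chromosome 19, against 14 (17.1%) of those without KRAB. KRAB members were also at lower expression, with a median of 4.04 log2 CPM against 4.87, at similar median exonic lengths of 6161 and 6282 bases.

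Of the 135 KRAB members, 23 were higher and 34 lower, and their median log2 fold change was -0.01 in the authors' deposited table. Of the 82 without KRAB, 19 were higher and 26 lower, and their median was 0.02. The shares called were 42.2% and 54.9%, beside 54.1% over all genes of at least 3 log2 CPM, and the median SE was 0.07 in the KRAB group and 0.06 in the other. Within 3 to 4 log2 CPM the KRAB group had 5 higher and 17 lower of 63, and from 4 log2 CPM upward 18 higher and 17 lower of 72. The group without KRAB likewise had 2 higher and 7 lower of 21 in the lower range, and 17 higher and 19 lower of 61 above it. The 13 members with a SCAN domain had 3 higher and 4 lower. By number of fingers, 6 of 30 members with 0 to 4 were higher and 8 lower, and 15 of 65 with 5 to 9 were higher and 23 lower. Of 77 with 10 to 14 fingers 11 were higher and 23 lower, and of 45 with 15 or more 10 were higher and 6 lower. The members with 0 matches to the finger pattern were ZNF259, which GENCODE names ZPR1, ZNF330 and ZNF720. Over all genes of at least 3 log2 CPM, 28.4% were higher and 25.7% lower, the background to the counts of each class. None of the differences between classes was tested.

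**Figure D3:**
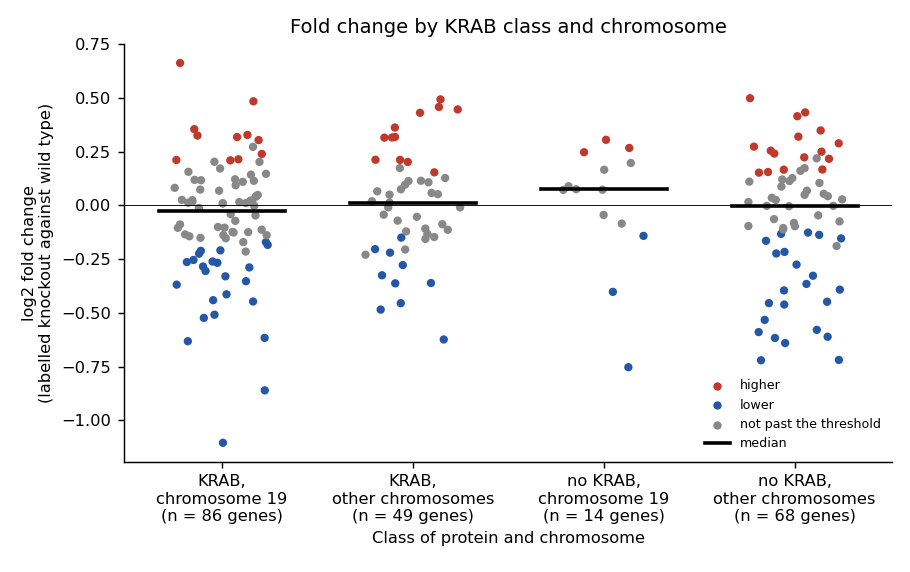
Log2 fold change (vertical axis, labelled knockout against wild type) of each member by KRAB class and chromosome, with a black bar at each median, red for called higher, blue for called lower and grey for not past the threshold. The 4 medians lie between -0.03 and 0.07, and the KRAB genes of chromosome 19 hold both the lowest (ZNF419, -1.10) and the highest member (ZNF480, 0.66).

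On chromosome 19, 14 of 101 members were higher and 27 lower, and their median log2 fold change was 0.01 in the authors' deposited table. Members on other chromosomes had 29 higher and 34 lower of 119. The other 496 genes of chromosome 19 at that expression had 170 higher and 119 lower and a median of 0.07. Among KRAB members the counts were 11 higher and 24 lower of 86 on chromosome 19, and 12 higher and 10 lower of 49 elsewhere. Chromosome 7, with 20 members, had 5 higher and 6 lower. The shares over all genes of at least 3 log2 CPM were 28.4% higher and 25.7% lower.

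Neighbouring members shared a direction in some runs and differed in others. Of 99 consecutive pairs along chromosome 19, 48 had fold changes of the same sign, and the rank correlation of neighbours was -0.01 (a description over pairs that share genes). Within runs of members less than 1000000 bases apart, 46 of 85 pairs had the same sign. The longest run, 32 members from ZNF628 to ZNF324 that include ZNF419, had 3 higher and 9 lower. The next, 27 members from ZNF175 to ZNF331 that include ZNF480, had 4 higher and 7 lower. In the run of 10 members from ZNF146 to ZNF569, 4 were higher and 3 lower. This run holds ZNF850 at 0.48 and ZNF566 at -0.62 in the authors' deposited table. Of the 8 members from ZNF283 to ZNF180, 0 were higher and 1 was lower, while the 7 from ZNF558 to ZNF562 had 2 higher and 0 lower. The 5 members from ZNF627 to ZNF791 had 0 higher and 3 lower. These 3 are consecutive in the order of members: ZNF627 (-0.63), ZNF441 (-0.86) and ZNF700 (-0.25) in the authors' deposited table. Genes that are not members can lie between them. The shares for all genes of at least 3 log2 CPM, 28.4% higher and 25.7% lower, are the background to these small counts.

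**Figure D4:**
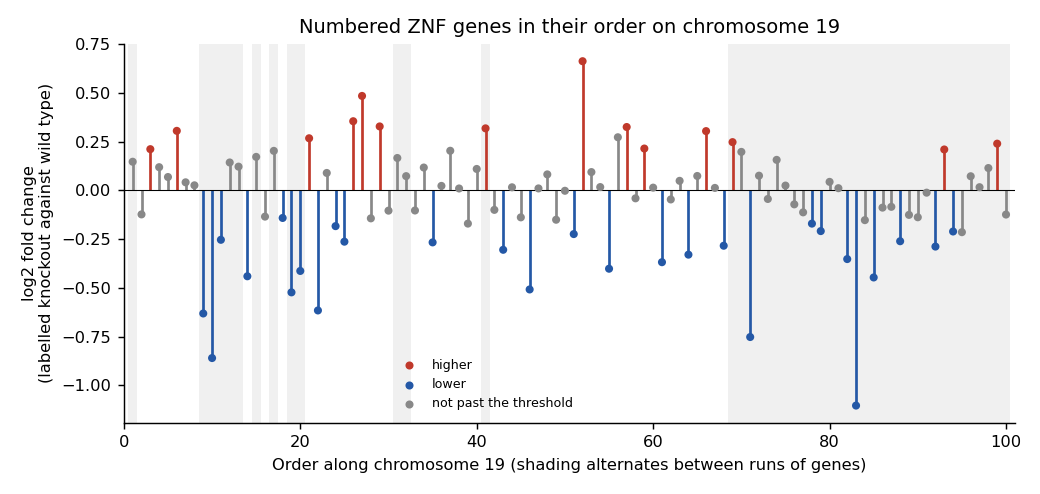
Log2 fold change (vertical axis, labelled knockout against wild type) of 100 members in their order along chromosome 19, with shading that alternates between runs separated by over 1000000 bases. Red (higher), blue (lower) and grey (not past the threshold) genes alternate within the runs, and ZNF419 is the lowest point, in the last run.

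Sequence shared with other annotated genes, in copies or in overlapping exons, limits some of these values. For 25 members, over 10% of the 50-base stretches of the longest transcript also occur in transcripts of other genes. These had 5 higher (20%) and 11 lower (44%), and their median log2 fold change was -0.14 in the authors' deposited table. The 194 with less sharing had 38 higher (19.6%) and 50 lower (25.8%). ZNF417 and ZNF587, a pair of KRAB repressors of the endogenous retrovirus HERV-K, share sequence with each other. They stood at -0.21 each in the authors' deposited table, with an adjusted p of 0.0525 for ZNF417 and 0.00439 for ZNF587 (edgeR). ZNF320 and ZNF468 share 99.5% and 99.2% of these stretches with other genes, most of all with each other, and their values of 0.01 and 0.21 in the authors' deposited table are uncertain. Exons of other genes on the same strand, each other's among them, cover 78.5% and 53.3% of their exonic bases. Their sharing is thus at least partly overlap at the same locus. For 40 members, exons of another gene cover over 10% of the exonic bases, and since no strand setting is given, reads of both genes cannot be told apart. These had 9 higher (22.5%) and 10 lower (25%). The background to the counts for sharing and overlap is 28.4% higher and 25.7% lower over all genes of at least 3 log2 CPM.

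The members with the most reads changed by small amounts. On the scale of mean log2 CPM, not corrected for length, the first 5 were ZNF146 (7.88), ZNF207 (7.82), ZNF638 (7.30), ZNF664 (7.27) and ZNF451 (7.25) in the authors' deposited table. ZNF146, a protein of fingers alone, was higher, at 0.27 with an SE of 0.05 in the authors' deposited table. ZNF664 was 1.25-fold higher, at 0.32 with an SE of 0.05 there. ZNF638, which helps the HUSH complex silence unintegrated viral DNA, stood at 0.24 in the authors' deposited table. ZNF451, a SUMO ligase, was lower, at -0.28 with an SE of 0.07 there. ZNF207, a spindle protein also called BuGZ, had a value of 0.04, with bounds at -0.07 and 0.14, in the authors' deposited table. Per kilobase of exonic length the order was ZNF146 (5.82 log2 CPM per kilobase), ZNF664 (4.61), ZNF330 (4.37), then ZNF622 and ZNF770 (3.86).

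Members with an established role showed no common direction. Of 31 members listed for such a role, 9 were higher and 8 lower, 14 did not pass, and the median log2 fold change was 0.02 in the authors' deposited table. Among all genes of at least 3 log2 CPM, 28.4% were higher and 25.7% lower. Among activators and factors at promoters, ZNF143, ZNF281 and ZNF263 (0.31) were higher, and ZNF335 (0.29), a subunit of H3K4 methyltransferase complexes, and ZNF384 (0.15) were also higher in the authors' deposited table. ZNF148, which binds GC boxes like ZNF281, had a log2 fold change of -0.08 with an SE of 0.07 there. ZNF76 (-0.61), the paralogue of ZNF143, was lower in the authors' deposited table. ZNF711 (-0.72), which binds CpG island promoters and was not on the list, was also lower there. Of the corepressor partners, ZNF516 and ZNF687 (-0.16) were lower and ZNF644 (0.16), a partner of G9a, was higher in the authors' deposited table. ZNF217, of LSD1 and CtBP complexes, had a value of -0.05 and ZNF592 one of -0.07 there, neither past the threshold.

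Among KRAB factors of known function, ZNF274, which brings SETDB1 to zinc-finger genes, had a log2 fold change of 0.02 with bounds at -0.10 and 0.13 in the authors' deposited table. ZNF445, which maintains imprints, had a value of 0.01 there. ZNF649, which binds LINE-1 elements, had 0.02, ZNF589, of haematopoietic progenitors, 0.06 and ZNF268 -0.01 in the authors' deposited table. Other KRAB members listed for a role were called: ZNF350 (-0.51) and ZNF587 (-0.21) lower and ZNF263 (0.31) higher there. ZNF417 (-0.21), also of this class, did not pass. In the proteins that act on RNA, ribosomes or ubiquitin, ZNF598, the ligase that marks collided ribosomes, was 1.25-fold lower at -0.33 with an SE of 0.07 (edgeR adjusted p = 0.00391) in the authors' deposited table. ZNF326, of the DBIRD complex, was higher at 0.22 there. ZNF622, of 60S subunit maturation, had 0.17 with an adjusted p of 0.0648, and ZNF346, which binds double-stranded RNA, 0.05 in the authors' deposited table. ZNF131 was lower at -0.13, and ZNF395 (-0.11) and ZNF24 (0.11) were not past the threshold there.

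The corepressor machinery that KRAB factors work through was measured for all 28 listed genes. The list was written with earlier results of these data known, so its counts are a description and no independent evidence of a direction. Of these, 15 were higher and 1 was lower, 12 did not pass, and the median log2 fold change was 0.16 in the authors' deposited table, beside 28.4% higher and 25.7% lower over all genes of at least 3 log2 CPM. TRIM28 itself was 1.32-fold higher, at 0.40 with an SE of 0.05 (edgeR adjusted p = 0.000103) in the authors' deposited table. SETDB1, the methyltransferase it recruits, was the 1 lower gene, at -0.20 with an SE of 0.05 there. The DNA methylation factor UHRF1 stood at 0.48 and the H3.3 chaperone DAXX at 0.43 in the authors' deposited table, whereas their partners DNMT1 (-0.05) and ATRX (0.05) were not past the threshold. HP1 beta (CBX1, 0.20) was higher, and HP1 gamma (CBX3, 0.05) and HP1 alpha (CBX5, 0.00) did not pass in the authors' deposited table. HUSH subunits FAM208A (0.23), PPHLN1 (0.23) and MPHOSPH8 (0.13) were higher there, and their partner MORC2 had -0.02. The H3K9 methyltransferases SUV39H1 (0.25), SUV39H2 (0.26) and EHMT1 (0.20) were higher and EHMT2 had -0.09 in the authors' deposited table. Of the deacetylase complex, HDAC1 (0.31), HDAC2 (0.19), MTA2 (0.21) and CHD3 (0.22) were higher there, and CHD4 (-0.01) and MTA1 (-0.12) were not past the threshold. MORC3 (0.25), an ATPase of heterochromatin silencing, was the remaining higher gene in the authors' deposited table.

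**Figure D5:**
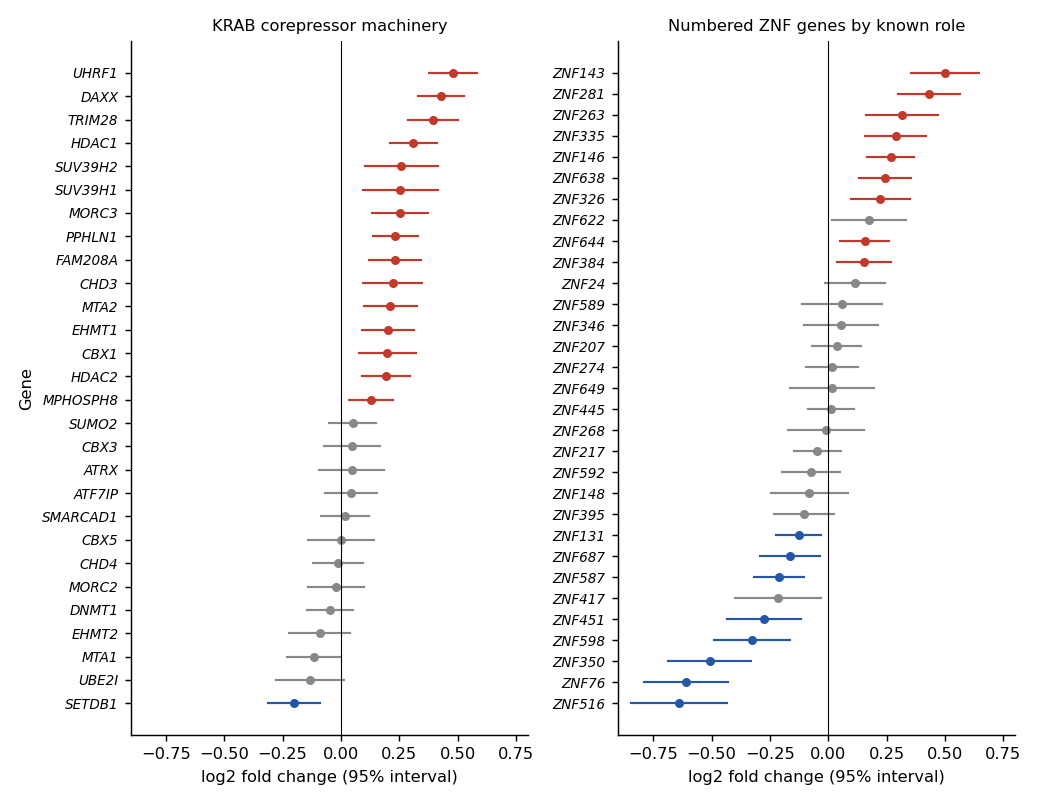
Log2 fold change (horizontal axis, labelled knockout against wild type) with its 95% interval for the 28 genes of the KRAB corepressor machinery (left) and the 31 members with a listed role (right), red for called higher, blue for called lower and grey for not past the threshold. On the left 15 genes are higher and 1 (SETDB1) lower, and on the right 9 are higher and 8 lower.

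Other C2H2 families at the same expression are given for comparison. Of 22 ZBTB genes, 6 were higher and 6 lower, and of 13 ZSCAN and ZKSCAN genes 1 was higher and 5 lower in the authors' deposited table. Of 16 ZNF genes whose number is followed by a letter, 4 were higher and 8 lower, a share called of 75%, with a median log2 fold change of -0.15 there. Of 6 ZFP genes, 2 were higher and 1 lower. The background to these small counts is 54.1% called among all genes of at least 3 log2 CPM, 28.4% higher and 25.7% lower. Differences between these families and the numbered ZNF genes were not tested.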

How the data were processed

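RNA from 3 libraries labelled ERF knockout and 2 labelled wild type was extracted with Trizol and made into libraries with an Illumina TruSeq RNA kit, per the labels' protocols. Tools listed in the submitters' processing notes, without roles, are edgeR 2.6.12, Cuffdiff, HTSeq, SAMtools and TopHat2 2.0.4, with build hg19/GRCh37. The settings for strand, filters and normalization: not given in the sources used here. The deposited values, 11979 rows per the file headers, are on a log2 scale for fold change and mean CPM. The authors' F score comes from a quasi-likelihood test, and each deposited p-value has its adjusted form beside it. The 3 rows that name no gene hold 21.5% of its CPM and were left out. Adjusted p-values recomputed by the Benjamini-Hochberg method differed from the deposited ones by at most 0.676%. No columns hold values per sample, so nothing was fitted again.

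The fold changes were multiplied by -1 (HBG2 higher in the libraries labelled knockout). The SE is the absolute log2 fold change over the square root of F, an approximation. The recomputation of p-values was tested on simulated data. Genes named were the 12 lowest and 12 highest called members, the 5 of highest mean log2 CPM, those next to the threshold and the listed genes with a role. Members and lists were chosen with earlier results of these data known, and 1 gene of the corepressor list is not reported here. GENCODE 29 coding sequences were used for domains, as no protein table was given: KRAB and SCAN profiles grown from these proteins with pyhmmer 0.12.3 (E-value below 0.001), and fingers by a pattern of cysteines and histidines. GENCODE identifiers matched 219 of 220 members. Python 3.11.15 and SciPy 1.17.1 were used. Alternatives were other thresholds, name patterns, adjustments and centrings.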

Additional observations from a re-analysis of the deposited data

How the results depend on the processing

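Of the 220 members, 104 were called in the authors' deposited table (43 higher, 61 lower). With a threshold of 4 log2 CPM, 36 members were higher and 36 lower. With 5 log2 CPM, 33 were called, 15 higher and 18 lower. With no threshold on expression, 158 of 358 were called and 101 were lower. A minimum of 0.5 on the absolute log2 fold change left 18 calls, 1 higher and 17 lower. Centred on genes of at least 5 log2 CPM (a shift of 0.03), 35 members were higher and 68 lower, so 66% of calls were lower, against 58.7%. Under that centring MPHOSPH8, ZNF384 and ZNF644 were no longer past the threshold, MTA1 (-0.15) and ZNF417 (-0.25) passed it, and the other 75 named genes kept their side of it. Of these, CBX5 (-0.03), SMARCAD1 (-0.02), ZNF274 (-0.02), ZNF445 (-0.02) and ZNF649 (-0.02), none past the threshold, changed sign from values just above 0. The remaining alternatives moved each count by less than 1.5 times, and under every alternative that gives one the median log2 fold change lay between -0.05 and 0.02. No paired analysis was possible because the table has no columns per library, and leaving out libraries, a second count model and a filter on low counts were not run for the same reason. Depth is unknown, and members near 3 log2 CPM have the larger standard errors (median 0.08 at 3 to 4 log2 CPM, 0.05 from 6 log2 CPM upward).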
